A study of Homo sapiens with 8 samples.

Results

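The regions described here are the high-ranked SMAD2 regions of WA09 cells that carried no called TEAD4 region. WA09 is an established line of human embryonic stem cells, kept here on Matrigel in conditioned medium. ChIP-seq, the sequencing of DNA pulled down with an antibody to a chromatin protein, was done after 4 h in the solvent DMSO or in 10 µM SB431542, an inhibitor of the type I receptors for activin, Nodal and TGF-β. Of 8 labelled samples, called regions of 3 were analysed, each from 1 library: SMAD2 and TEAD4 of DMSO cells, and TEAD4 of SB431542 cells. All 3 come from the same line, with no genetic change named in the labels.

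A region was taken when it stood in rows 1 to 5000 of the SMAD2 list, lay on chromosomes 1 to 22 and overlapped no region of either TEAD4 list by 1 bp or more. This left 4270 members of 972037 regions in the 3 lists, or of 420548 SMAD2 regions. The 5000 rows held 128 regions on the sex chromosomes, which the rule leaves out, and 4872 on the autosomes. Of these 4872, a further 338 overlapped TEAD4 of DMSO cells alone, 225 overlapped TEAD4 of SB431542 cells alone and 39 overlapped both lists. Row order is read here as a ranking, although no header or label gives the key by which the rows were sorted, so "high-ranked" means early in the list. The members were chosen by row order and by TEAD4 overlap, so their rank and their lack of TEAD4 are not results. Because the lists give positions only, "without TEAD4" means that no region was called there at an unstated depth and threshold, not that TEAD4 was absent from the DNA. There was no replicate, so no p-value is given, and the 95% Wilson intervals cover counting error alone, with each region taken as independent of its neighbours.

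SMAD2 is a signal transducer of the activin, Nodal and TGF-β branch. Activated type I receptors phosphorylate it, after which it enters the nucleus with SMAD4 and is brought to DNA largely by partner factors. In human embryonic stem cells this branch helps to hold the undifferentiated state and, at stronger signalling, goes with mesendoderm formation. TEAD4 is one of the DNA-binding factors through which YAP and TAZ, the effectors of the Hippo pathway, reach their targets.

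The values that chose the members, row place and TEAD4 overlap, are given first as a description, and nothing is read from them. Among the first 5000 rows 87.6% of autosomal regions had no TEAD4, against a background of 91.6% over all 403674 autosomal SMAD2 regions. In later rows the share was 91.7%. In the first 100 rows 87 of 93 autosomal regions had no TEAD4 (93.5%, 86.6 to 97.0%). The share was 86.7% (84.3 to 88.8%) in rows 101 to 1000 and 87.7% (86.7 to 88.7%) in rows 1001 to 5000 and 92.7% (92.6 to 92.9%) in the last rows. Overlap with TEAD4 of DMSO cells was 7.74% in rows 1001 to 5000, beside a background of 5.29%, and overlap with TEAD4 of SB431542 cells was 5.36%, beside 3.41%.

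The high-ranked regions were also wider than SMAD2 regions in general. The members had a median width of 299 bp (quartiles 249 and 299 bp, range 99 to 749 bp), compared with 149 bp over all SMAD2 regions without TEAD4. Of the members 1678 were 249 bp wide, 1359 were 299 bp wide and 345 were wider than 349 bp. The 602 high-ranked regions that did overlap TEAD4 had a mean width of 299.3 bp, against 285.4 bp in the members. The part of width in the share without TEAD4 was not tested, and the shares at equal width, a comparison chosen after seeing the data, are again a description. Among regions of 249 bp, 88.4% (86.9 to 89.8%) of the first 5000 rows and 88.9% (88.5 to 89.2%) of later rows had no TEAD4. Among regions of 299 bp the shares were 86.8% (85.0 to 88.4%) and 87.4% (86.7 to 88.0%). At 399 bp the share was also lower in the first 5000 rows, at 81.6% against 85.3%. The order was reversed at 149 bp (95.2 and 92.0%), 199 bp (92.2 and 90.7%), 349 bp (87.2 and 86.5%) and 449 bp (87.5 and 83.5%).

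**Figure D1:**
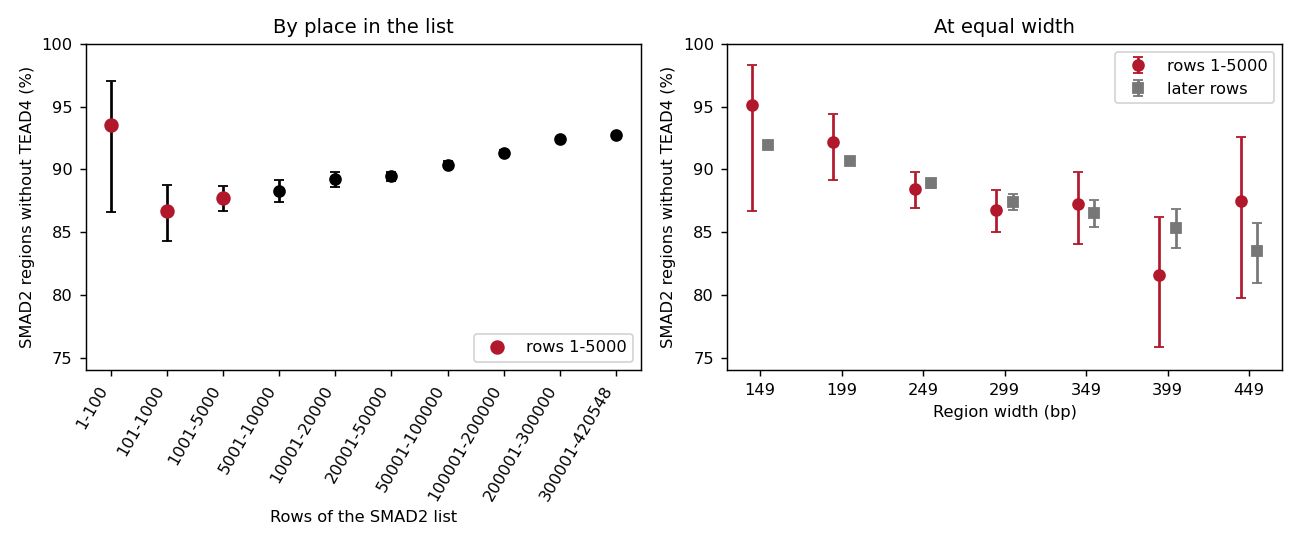
Share of autosomal SMAD2 regions without TEAD4 (%, points; bars are 95% Wilson intervals; the vertical axis does not start at 0) by rows of the SMAD2 list on the left, with the members' rows in red, and by region width in bp on the right for rows 1 to 5000 and later rows. The share is 86.7% in rows 101 to 1000 and 92.7% in the last rows; at 249 bp it is 88.4% in the first 5000 rows and 88.9% in later rows.

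Part of the row order followed position in the genome. Inside long stretches of the SMAD2 list the rows ran in reverse order of chromosome name and of position. Counting such stretches of at least 20 rows, the first began at row 489 and the longest within the first 5000 rows held 175 rows. All such stretches together held 2013 of the 4270 members (47.1%), beside 47.0% of the first 5000 rows and 83.2% of the whole SMAD2 list. Row numbers within a stretch therefore order regions by place in the genome. A stretch of this kind, rows 4868 to 4999, ended just before the limit of 5000. Row 5000 began a new run, and row 5001 continued it in the same reverse order of chromosome name. The limit therefore fell inside that run, whose length was not determined. The last member, row 5000, was the 249 bp region chr7:138280051-138280299, with a TEAD4 region of DMSO cells 51 bp away. The first region outside the limit that met the same TEAD4 rule, row 5001, was the 299 bp region chr3:6280151-6280449, with TEAD4 of DMSO cells 7601 bp away.

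The 5 leading members were 299 to 399 bp wide, and their nearest TEAD4 calls lay 251 to 15208 bp off. The first stood in row 4 on chromosome 14 (chr14:57144101-57144399, 299 bp). A TEAD4 region of DMSO cells lay 251 bp below it (row 147235 of 289380), and one of SB431542 cells 1995 bp above it (row 67739 of 262109). It had 1 other SMAD2 region within 10 kb. Row 6, on chromosome 2 (chr2:210872301-210872699, 399 bp), had 4 such neighbours, the nearest 51 bp away, and its nearest TEAD4 regions were 4401 bp off in DMSO and 15208 bp off in SB431542. Row 7 lay on chromosome 9 (chr9:118607501-118607849), 5351 and 2269 bp from TEAD4 of the same lists. Row 8, chr13:46657851-46658199, was 5901 bp from TEAD4 in DMSO and 312 bp from TEAD4 in SB431542, and row 9, chr5:141869451-141869849, was 3801 and 457 bp from them. The nearest TEAD4 regions stood between rows 37196 and 232112 of their lists. Of the nearest TEAD4 calls within 1 kb of any member, 1.29% (DMSO) and 1.58% (SB431542) stood in rows 1 to 5000. In the next 5000 SMAD2 rows under the same rule the shares were 1.82% and 1.03%. Stretches in positional order of at least 20 rows held 96.1% of the DMSO and 91.9% of the SB431542 TEAD4 list. Nothing is therefore read from these TEAD4 row numbers.

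The distance from members to TEAD4 was close to that of lower-ranked SMAD2 regions. The gap to the nearest TEAD4 region of DMSO cells had a median of 3451 bp (interval 3301 to 3651 bp, quartiles 1301 and 7501 bp) in the members and 3601 bp (3451 to 3751 bp) in the 4284 regions of rows 5001 to 10000 that met the same TEAD4 rule. Over all 369797 autosomal SMAD2 regions without TEAD4 it was 3401 bp. For TEAD4 of SB431542 cells the medians were 3613.5 bp (3478 to 3769 bp) in the members and 3660.5 bp (3500 to 3821 bp) in rows 5001 to 10000. The intervals of members and next rows overlapped in both lists. Over 11 later blocks of 5000 rows the median ran from 3351 to 3751 bp for DMSO, with 10 blocks above the members, and from 3459 to 3739 bp for SB431542, with 6 above them.

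Close TEAD4 calls were common beside the members, at about the background share. A TEAD4 region of DMSO cells stood within 1 kb of 852 members (20.0%, 18.8 to 21.2%), beside a background of 19.7% over all SMAD2 regions without TEAD4. For TEAD4 of SB431542 cells the number was 760 (17.8%, 16.7 to 19.0%), beside 17.6%. Both lists had a call within 1 kb of 185 members (4.33%, 3.76 to 4.99%), beside 3.89%. For DMSO the members stood 1.96 points above rows 5001 to 10000 (0.29 to 3.62). In 1 of 11 later blocks of 5000 rows the share was nevertheless higher than in the members, and their range was 17.8 to 19.98%. For SB431542 the difference from rows 5001 to 10000 was -0.27 points (-1.89 to 1.36). At 200 bp it was 0.18 points (-0.65 to 1.01) for DMSO and 0.55 points (-0.26 to 1.37) for SB431542, and both intervals include 0.

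In 45 members the gap to TEAD4 of DMSO cells was 1 bp, the smallest that the 50 bp grid of these lists allows. The highest-ranked of them was row 204 on chromosome 9 (chr9:34899801-34900149), which adjoined the TEAD4 region chr9:34899451-34899799 (row 74322). Such members meet the rule although the calls adjoin, and whether adjoining calls mark the same site was not tested. A gap of 1 bp was also the smallest in the next 5000 rows under the same rule and over all SMAD2 regions without TEAD4. How many regions there had it was not counted. Within 200 bp of TEAD4 of DMSO cells stood 4.05% of members, 3.87% of those next rows and 4.30% of all such SMAD2 regions. Had a TEAD4 edge within 500 bp counted as presence, 3466 members would be left, 71.1% of the 4872 high-ranked autosomal regions. In later rows the share left was 74.4%, a difference of -3.28 points (-4.58 to -2.02).

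**Figure D2:**
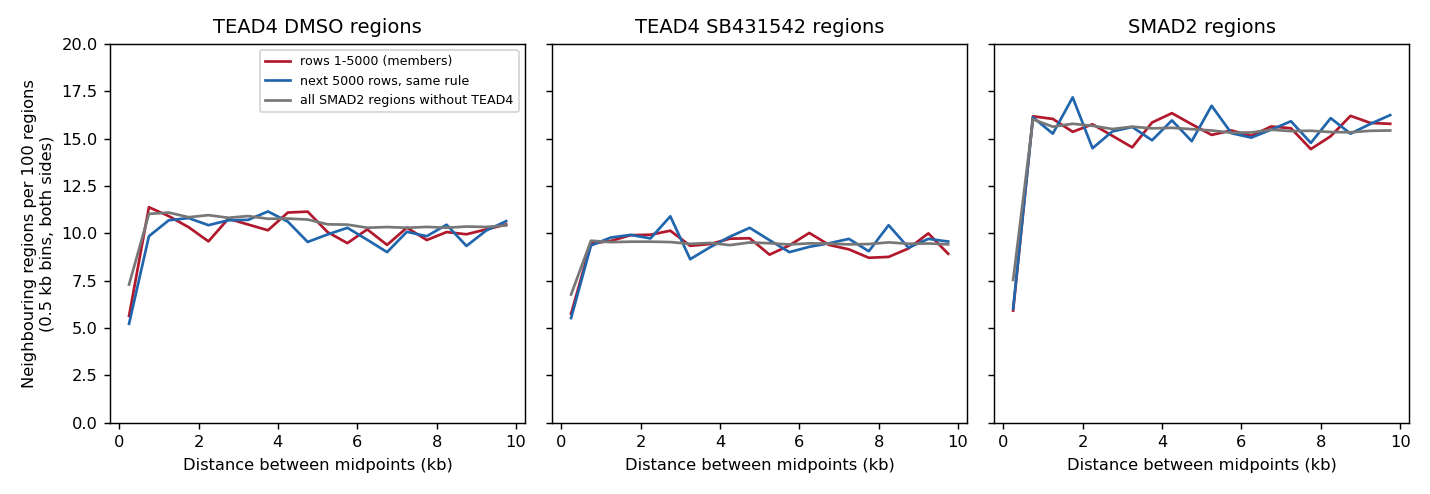
Number of TEAD4 regions of DMSO cells, TEAD4 regions of SB431542 cells and other SMAD2 regions per 100 regions (vertical axis), in 0.5 kb bins of the distance between midpoints (horizontal axis, kb, both sides added), around members, around the next 5000 rows under the same rule and around all autosomal SMAD2 regions without TEAD4. Beyond the first bin, which the rule and the region widths lower, the 3 lines run together: members had 11.4 TEAD4 regions of DMSO cells per 100 at 0.5 to 1 kb and 10.5 at 9.5 to 10 kb.

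High-ranked TEAD4 regions, meaning those early in their lists, stood beside members at about the background share. Stretches in positional order of at least 20 rows held 70.2% of the first 5000 TEAD4 rows in DMSO and 15.0% in SB431542. Row numbers inside them order regions by place in the genome. A TEAD4 region of rows 1 to 5000 lay within 10 kb of 155 members in DMSO (3.63%, 3.11 to 4.23%; background 3.51%) and of 99 members in SB431542 (2.32%, 1.91 to 2.81%; background 2.72%). Against rows 5001 to 10000 the differences were 0.69 points (-0.07 to 1.45) and -0.34 points (-1.01 to 0.32), with 0 inside both intervals. Within 1 kb the number was 13 for DMSO (0.304%, 0.178 to 0.52%; background 0.363%) and 13 for SB431542 (0.304%; background 0.28%), each close to the background. In 2 members (0.0468%, 0.0128 to 0.171%; background 0.0403%) a high-ranked TEAD4 region of both lists was that close, as in 2 of 4284 regions of rows 5001 to 10000, and both members are named here after their values were seen. The first, row 907 on chromosome 10 (chr10:95551001-95551249), lay 351 bp from the DMSO region chr10:95550251-95550649 (row 3737) and 381 bp from the SB431542 region chr10:95550372-95550619 (row 2021). The other, row 977 on chromosome 2 (chr2:30875901-30876199), lay 401 bp from chr2:30875201-30875499 (row 778) in DMSO and 441 bp from chr2:30875223-30875459 (row 1391) in SB431542. In both cases the TEAD4 regions of the 2 treatments overlapped each other and the SMAD2 region stood to one side.

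At the other end, 113 members (2.65%, 2.21 to 3.17%) had no TEAD4 region of either list within 10 kb, beside a background of 2.96%. Within 50 kb 2 members had none, 0.047% of them, beside a background of 0.0365%. The member farthest from TEAD4 of DMSO cells was row 4008 on chromosome 9 (chr9:43852751-43853049), with gaps of 107901 bp in DMSO and 177477 bp in SB431542. The other, row 4187 on chromosome 14 (chr14:19697651-19697949), had gaps of 97451 and 75253 bp and is named after its values were seen. Each still had another SMAD2 region within 2 kb, at 1401 and 1601 bp. Neither bordered a long empty stretch of the genome, taken as 1 Mb or more without a region of any list, with a reach of 500 kb.

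The local density of SMAD2 regions around members was close to that around other SMAD2 regions. A member had a median of 3 other SMAD2 regions within 10 kb (quartiles 2 and 4, range 0 to 12) and a mean of 3.018, compared with 3.032 in rows 5001 to 10000, 3.11 in the 602 high-ranked regions with TEAD4 and 3.031 over all SMAD2 regions without TEAD4. No other SMAD2 region lay within 10 kb of 217 members (5.08%, 4.46 to 5.78%; background 4.8%). Another lay within 1 kb of 1112 (26.0%, 24.7 to 27.4%; background 25.3%). Against the high-ranked regions with TEAD4 this last share differed by -1.03 points (-4.94 to 2.62).

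Some members did sit in dense places. Row 131, on chromosome 3 (chr3:186468251-186468499), had 12 other SMAD2 regions within 10 kb, the most of any member, together with 4 TEAD4 regions of DMSO cells and 3 of SB431542 cells. Row 2417 on chromosome 9 (chr9:18915001-18915199) and row 3420 on chromosome 3 (chr3:72940401-72940599) had 10 each. Around row 3420 there were 5 TEAD4 regions of DMSO cells within 10 kb and 0 of SB431542 cells, and around row 2417 there were 1 and 2. Next come the widest members. Row 539 on chromosome 4 (chr4:134913001-134913749) and row 4114 on chromosome 5 (chr5:24268351-24269099) were 749 bp wide, with 2 and 3 SMAD2 neighbours within 10 kb. Row 30 on chromosome 10 (chr10:83519201-83519899) was 699 bp wide and had 2, with a TEAD4 region of DMSO cells 201 bp away.

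Most members stood alone among the members. Another member lay within 50 kb, between midpoints, of 697 (16.3%, 15.2 to 17.5%), and the other 3573 had none. The neighbours formed 326 pairs and 15 groups of 3, and no larger group. Median spacing within a pair was 24100 bp, and 67 pairs were within 10 kb. In rows 5001 to 10000 under the same rule, 634 of 4284 regions (14.8%) had such a neighbour, in 276 pairs, 26 groups of 3 and 1 larger group. The difference in share was 1.52 points (-0.013 to 3.06), and 3 of 11 later blocks of 5000 rows had a higher share than the members. With 100 kb in place of 50 kb the members reached 29.1% and rows 5001 to 10000 reached 26.0%, a difference of 3.11 points (1.21 to 4.997). That difference was from the next block only: 4 of the 11 later blocks, whose range was 26.0 to 30.9%, had a higher share than the members.

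**Figure D3:**
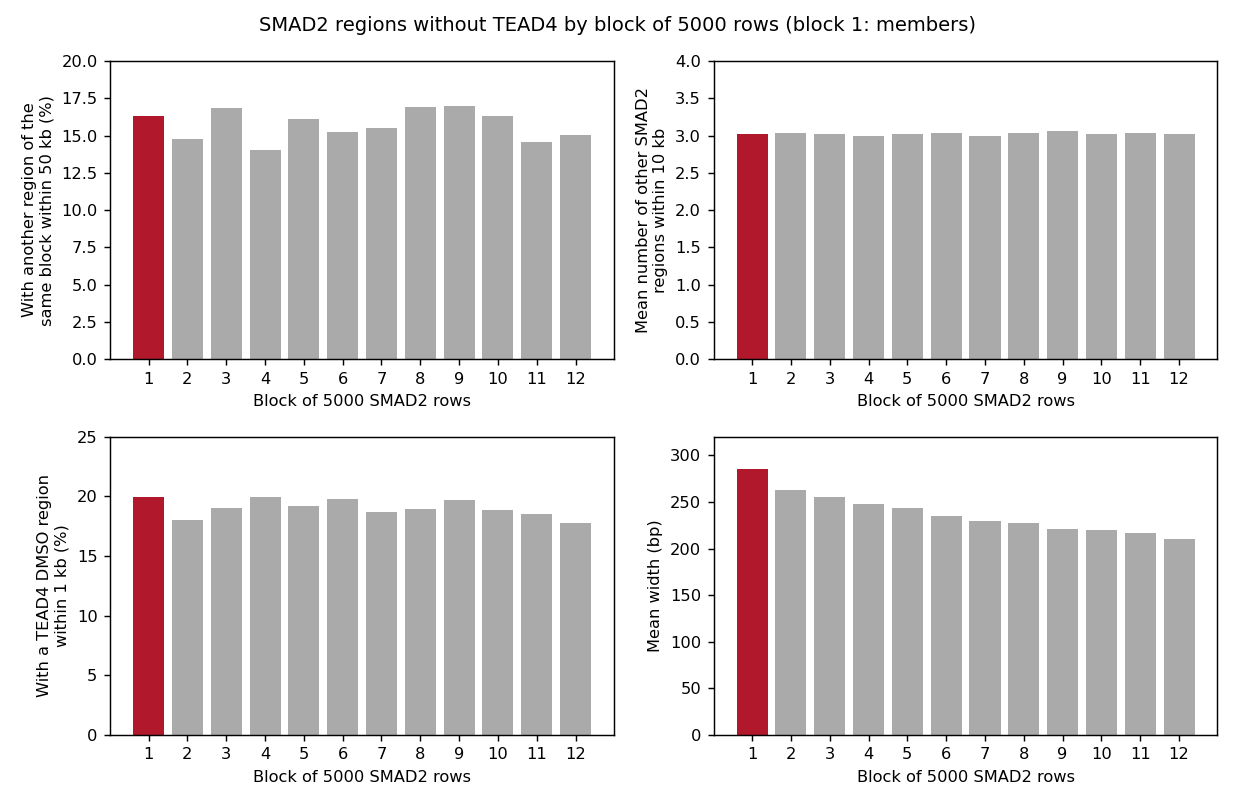
Measures (bars, from 0) of SMAD2 regions without TEAD4 in the first 12 blocks of 5000 rows of the SMAD2 list (horizontal axis): share with another region of the block within 50 kb (%), mean number of other SMAD2 regions within 10 kb, share with a TEAD4 region of DMSO cells within 1 kb (%), and mean width (bp). The members, in red, lie within the range of the later blocks for the first 3 measures and above it for width, at 285.4 bp against at most 262.7 bp.

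The 15 groups of 3 spanned 17649 to 85099 bp, and called TEAD4 regions of both lists lay between the members of every one. Such spans commonly held both: of the 26 groups of 3 in rows 5001 to 10000 under the same rule, which spanned 13649 to 81649 bp, 25 did. Per 100 kb, the members' groups held 8.85 TEAD4 regions of DMSO cells and 10.9 of SB431542 cells, beside 9.55 and 11.3 in those other groups, so nothing particular to the members is read from it. The group with the highest-ranked member spanned 65599 bp of chromosome 5 (chr5:141837401-141902999) and held rows 9, 2571 and 4331. Between its ends stood 7 other SMAD2 regions, 7 TEAD4 regions of DMSO cells and 11 of SB431542 cells. On chromosome 4, chr4:102386451-102454699 held rows 355, 1222 and 2511, with 8 TEAD4 regions of DMSO cells and 3 of SB431542 cells. A group on chromosome 5 (chr5:65186451-65250299, first row 396) contained a TEAD4 region of row 2529 in DMSO and one of row 3066 in SB431542, and its member in row 2802 was 1 bp from TEAD4 of DMSO cells.

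In 2 groups no other SMAD2 region stood between the members. On chromosome 18, chr18:47636101-47655799 (first row 502) held 0 other SMAD2 regions and 1 TEAD4 region of each list. On chromosome 10, chr10:103376001-103396349 (first row 610) likewise held 0 other SMAD2 regions, with 1 TEAD4 region of DMSO cells and 2 of SB431542 cells. The shortest, chr1:43725501-43743149 (first row 1062), held 4 other SMAD2 regions. On chromosome 22, chr22:21931701-21966599 (first row 540) included a TEAD4 region of DMSO cells in row 4523. On chromosome 13, chr13:63596901-63661699 (first row 1010) included 4 TEAD4 regions of DMSO cells and 17 of SB431542 cells, the most of any group. The chromosome 19 group, chr19:39411201-39475599 (first row 808), had a member 48 bp from TEAD4 of SB431542 cells and 2701 bp from TEAD4 of DMSO cells.

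The other groups began, by first row, on chromosome 14 at chr14:66701151-66701399 (row 422) and on chromosome 15 at chr15:85298551-85298899 (row 1261). Those on chromosome 5 were led by chr5:16094751-16095049 (row 1340) and chr5:159050251-159050499 (row 1426). The last ones were led by chr3:59977251-59977499 (row 2260) and chr13:31992601-31992849 (row 2702). In this set the number of TEAD4 regions of DMSO cells within a group was 2 to 9.

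**Figure D4:**
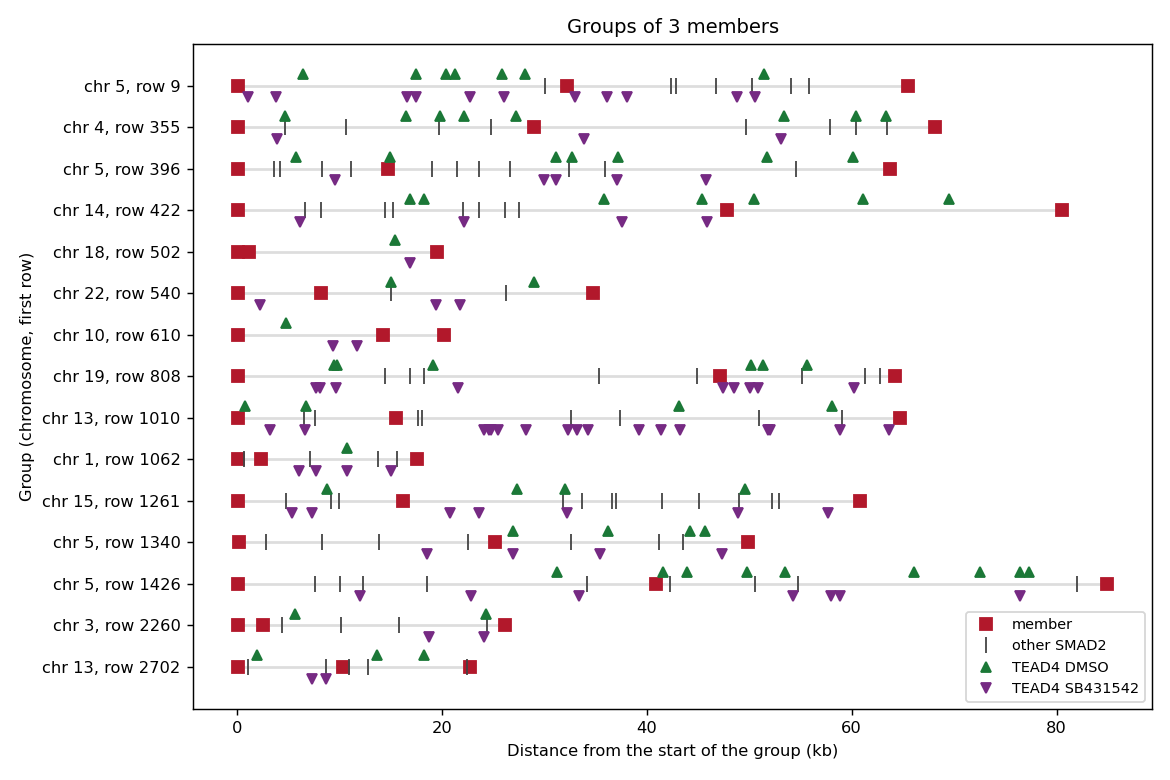
The 15 groups of 3 members (rows of the plot, named by chromosome and first row), with distance from the start of each group in kb on the horizontal axis: members as red squares, other SMAD2 regions as grey bars, TEAD4 regions of DMSO cells as green triangles and of SB431542 cells as purple triangles. Every group holds TEAD4 regions of both lists between its members, from 1 to 9 for DMSO and from 1 to 17 for SB431542. In rows 5001 to 10000, 25 of 26 groups of 3 also held both.

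The spread of members over the autosomes was close to that of all SMAD2 regions. Chromosome 2 held the most, 384 (8.99%), and chromosome 21 the fewest, 53 (1.24%). On all 22 autosomes the Wilson interval of the members' share included the share of all autosomal SMAD2 regions. Taken as a ratio to the share of all regions, the members' share was highest on chromosome 22, at 1.16, with 1.499% of members (1.18 to 1.91%) against 1.29% of all regions, and lowest on chromosome 4, at 0.898, with 6.09% (5.41 to 6.85%) against 6.78%. Among the first 5000 rows the share without TEAD4 ran from 84.1% of 63 regions on chromosome 21 to 91.8% of 147 on chromosome 17. These are the extremes of 22 small counts of a value that chose the members, so no difference between chromosomes is read from them.

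**Figure D5:**
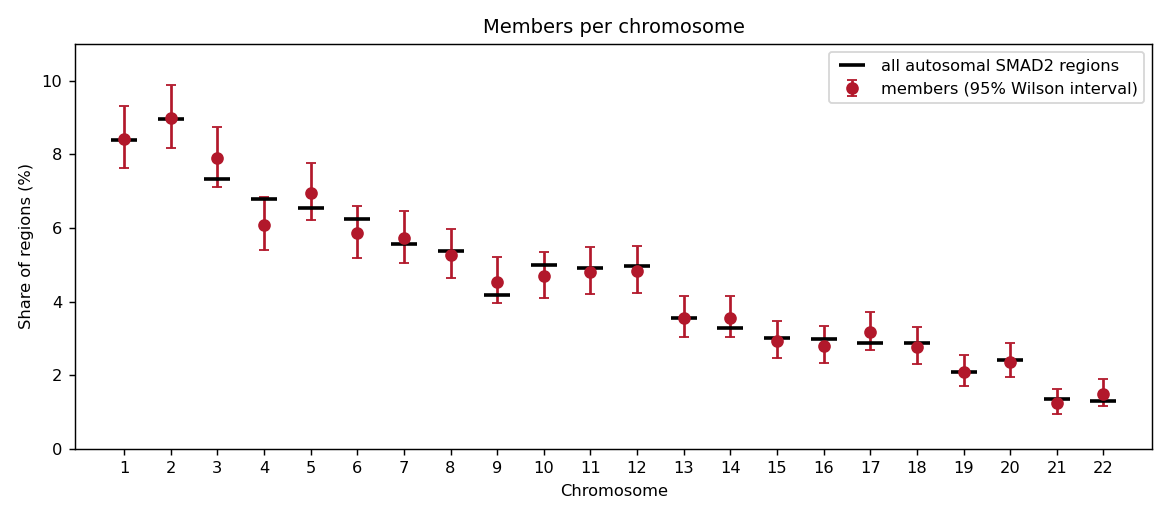
Share of the 4270 members on each autosome (red points, %, with 95% Wilson intervals) and share of all autosomal SMAD2 regions there (black bars). All 22 intervals include the share of all regions.

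Of the members, 18 (0.42%, 0.27 to 0.67%) bordered such an empty stretch, against a background of 0.591%. In the high-ranked regions with TEAD4 4 of 602 did, a difference of -0.24 points (-1.29 to 0.23).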

How the data were processed

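The deposited lists give chromosome, start and end of called regions in 3 columns without a header, and each was tied to its sample by antibody target and treatment in its name. Per the submitters' processing notes, coordinates are on hg19. How reads were aligned and regions called, against which control and at what depth, is not given in the sources used here. With depth unknown, no occupancy level was computed. DMSO starts all lie on a 50 bp grid, while 1.97% of the SB431542 starts do, so the 2 TEAD4 lists were made differently and TEAD4 is not compared between treatments. Printed starts are raised by 1 bp; widths are end minus start; gaps are bases between edges. The groups without a list here (5) were not analysed.

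Members, comparisons and windows were chosen with earlier results of these data known. Regions named are the first 5 members, the leaders of groups of 3, the widest 3 and those at the limit. The nearest and farthest from TEAD4 and the 3 with most SMAD2 neighbours (ties by row) are named too. Rows 907, 977 and 4187 were added after their values were seen. Blocks stop at row 60000, where runs of positional order (up to 2241 rows) stay shorter than a block. Differences of shares carry Newcombe intervals, built from the Wilson bounds, and medians carry order-statistic intervals. Overlap functions were tested on simulated regions against a direct count. Genes, promoters, motifs and sequences were not analysed here, as the annotation at hand is on another build. Python 3.11.15, NumPy 2.4.6, pandas 2.3.3, SciPy 1.17.1 and matplotlib 3.10.9 were used.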

Additional observations from a re-analysis of the deposited data

How the results depend on the processing

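Of 26 alternatives, 14 left the value within its interval or, for counts, within 1.5 times. The number of members was 848 with rows 1 to 1000 and 8554 with rows 1 to 10000, by construction. It was 3466 to 4655 under the other readings of overlap, region end and TEAD4 list. The difference in the share without TEAD4, first 5000 rows minus later rows, was -4.01 points (-4.97 to -3.11) under the rule. It was -1.43 (-2.05 to -0.88) with an overlap of 50% of both regions and -1.06 (-1.81 to -0.37) with midpoints within 100 bp. At equal width, a comparison chosen after seeing the data, it was -0.26 (-1.23 to 0.70). The share of members with another within the window was 3.37% at 10 kb and 29.1% at 100 kb, and at 50 kb it was 4.48% in rows 1 to 1000 and 28.6% in rows 1 to 10000, which follows from fewer or more regions. Mean SMAD2 neighbours were 1.48 within 5 kb and 15.4 within 50 kb. The median TEAD4 distance was 3700 bp between midpoints, which counts bases inside the regions too. Removing regions beside empty stretches moved no value past its interval. Alternatives on motifs, genes and gene lists were not run. No paired analysis was possible because the design holds a single library per group, and for the same reason no replicate could be left out. Depth is unknown, so a missing call is not a measured absence.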
